A study of Mus musculus with 40 samples.

Results

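The Cyp3a family was described in mouse liver through 6 genes, Cyp3a11, Cyp3a13, Cyp3a16, Cyp3a25, Cyp3a41a and Cyp3a44. They were taken by symbol from the deposited table of 17724 genes, and all 6 passed the filter for testing, a mean normalized value over the 40 livers of 10 or more, as did 13776 genes in all. Cyp3a16, Cyp3a41a and Cyp3a44 passed it only through the female livers, as their male group means were 1.29 to 8.30. The table holds 10 Cyp3a genes in all, and the 4 others are given where they bear on a result. Liver RNA of 40 mice was sequenced, 1 library per mouse, in 8 groups of 5 formed by genotype, diet and sex. The d3 groups were homozygous for the d3 allele (d3/d3), which lacks exon 3 of Ghr, the growth hormone receptor gene, and the WT groups carried wt/wt. The CR groups received chow restricted by 40%, and the AL groups ate ad libitum, from weaning at 30 days for another 30 days. The 8 groups are therefore d3 CR, WT CR, d3 AL and WT AL males (M), and d3 CR, WT CR, d3 AL and WT AL females (F). The strain of every mouse is given as C57BL/6NJ, and the cohort was bred by fertilising C57BL/6NJ oocytes in vitro with sperm of d3/d3 males. The sources used here do not say how many d3 lines were used. The treatment protocol puts death at about 2 months, whereas the extraction protocol gives 28 to 34 days. Replicates were numbered in record order, which pairs no animals across groups.

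CYP3A enzymes are cytochromes P450 of the endoplasmic reticulum that oxidise drugs, steroid hormones and bile acids, and in adult liver they are made mainly by hepatocytes. Their genes are classical targets of the xenobiotic receptors PXR (Nr1i2) and CAR (Nr1i3). In mice, some family members are made mostly by adult females, a pattern known to follow the sex difference in growth hormone secretion, which is pulsed in males and more continuous in females and acts through GHR and STAT5B.

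In the GENCODE M21 annotation of GRCm38, all 6 genes lie on the minus strand of chromosome 5, and each has 13 exons in its longest coding transcript. Cyp3a16 (chr5:145436309-145469723), Cyp3a41a (chr5:145694049-145720136), Cyp3a44 (chr5:145773983-145805874), Cyp3a11 (chr5:145854426-145879964) and Cyp3a25 (chr5:145977194-146009618) belong to a cluster of 9 genes spanning 768 kb. That count includes the pseudogene Cyp3a63-ps. Cyp3a13 (chr5:137892932-137921619) lies outside the cluster, 7.42 Mb from it, with the pseudogene Cyp3a61-ps1 (chr5:138383812-138391594) in between. The RefSeq promoter windows of 5 members (GRCm38.p6, 250 bases before to 50 bases after the start site, 300 bases) are printed because 3 of these genes were low in males and 2 were not. They are written 5′ to 3′ along the gene, with matches to 4 motifs in capitals.
Cyp3a41a (chr5:145720087-145720386, minus strand): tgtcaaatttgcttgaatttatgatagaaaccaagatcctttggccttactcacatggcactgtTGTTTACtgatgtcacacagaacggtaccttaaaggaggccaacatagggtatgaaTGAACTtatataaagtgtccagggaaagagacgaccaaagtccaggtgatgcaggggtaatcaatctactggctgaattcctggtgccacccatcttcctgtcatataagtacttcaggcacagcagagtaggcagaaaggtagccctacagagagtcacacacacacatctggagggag
Cyp3a44 (chr5:145805825-145806124, minus strand): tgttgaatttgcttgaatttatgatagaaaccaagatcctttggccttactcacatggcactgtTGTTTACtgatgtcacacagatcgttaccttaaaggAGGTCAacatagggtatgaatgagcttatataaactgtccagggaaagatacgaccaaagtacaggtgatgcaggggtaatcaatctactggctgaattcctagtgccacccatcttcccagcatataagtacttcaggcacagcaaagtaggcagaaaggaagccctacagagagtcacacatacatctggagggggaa
Cyp3a16 (chr5:145469674-145469973, minus strand): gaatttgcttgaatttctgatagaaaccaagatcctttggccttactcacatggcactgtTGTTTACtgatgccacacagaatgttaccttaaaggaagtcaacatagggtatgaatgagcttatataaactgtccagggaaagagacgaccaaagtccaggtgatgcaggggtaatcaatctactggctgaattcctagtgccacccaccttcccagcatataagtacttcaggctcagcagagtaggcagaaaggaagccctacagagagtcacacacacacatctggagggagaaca
Cyp3a11 (chr5:145879805-145880104, minus strand): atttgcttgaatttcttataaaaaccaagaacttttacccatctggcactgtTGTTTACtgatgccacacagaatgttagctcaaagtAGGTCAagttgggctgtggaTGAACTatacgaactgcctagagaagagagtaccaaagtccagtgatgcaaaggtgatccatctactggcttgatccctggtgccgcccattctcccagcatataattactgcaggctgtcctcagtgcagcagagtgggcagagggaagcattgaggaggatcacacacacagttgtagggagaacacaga
Cyp3a25 (chr5:146009569-146009868, minus strand): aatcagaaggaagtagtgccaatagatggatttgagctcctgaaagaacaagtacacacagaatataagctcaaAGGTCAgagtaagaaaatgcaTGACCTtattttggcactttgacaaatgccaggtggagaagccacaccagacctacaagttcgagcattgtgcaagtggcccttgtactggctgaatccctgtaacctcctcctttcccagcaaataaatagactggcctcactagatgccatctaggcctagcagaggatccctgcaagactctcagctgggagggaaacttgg

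The motifs searched on both strands were TGTTTAC, a forkhead motif, AGGTCA and AGTTCA, hexamers bound by nuclear receptors, and TTCNNNGAA, a STAT5 motif. TGTTTAC was present in Cyp3a16 at -190, in Cyp3a41a and Cyp3a44 at -186 and in Cyp3a11 at -198, counted from the start site to the first base of the match, and in 3.65% of all 32851 windows. AGGTCA occurred in Cyp3a44 at -150, in Cyp3a11 at -162 and in Cyp3a25 at -176 and, on the other strand, at -155, and in 16.3% of all windows. AGTTCA was found on the other strand in Cyp3a41a at -130 and in Cyp3a11 at -142, and in 13.99% of all windows. TTCNNNGAA, present in 8.30% of windows, had no match in the 6 members, and the window of Cyp3a13 held none of the 4 motifs. The windows of the 3 genes low in males were alike, with 93.05% identity between Cyp3a41a and Cyp3a44, 93.4% between Cyp3a16 and Cyp3a44 and 92.1% between Cyp3a16 and Cyp3a41a. They shared 70.6% (Cyp3a41a), 71.5% (Cyp3a44) and 75.5% (Cyp3a16) of aligned positions with Cyp3a11. Identity with Cyp3a25 was 52.4% for Cyp3a41a. Cyp3a11, which is close in sequence to those 3 genes, shared with them the TGTTTAC match.

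Similar transcripts limit how far reads can be assigned. Only 3 of the 2030 words of 31 bases in the Cyp3a41a transcript (0.148%) occur in no other gene, against 72.7% for Cyp3a16, 66.2% for Cyp3a11, 52.7% for Cyp3a25, 51.6% for Cyp3a44 and 99.7% for Cyp3a13. Of the Cyp3a44 words, 20.4% also occur in Cyp3a11, as do 19.8% of the Cyp3a41a words and 16.1% of the Cyp3a16 words. Small read counts of these 3 genes in males are therefore uncertain. Whether any such reads were misassigned was not tested. Cyp3a41a and Cyp3a41b, another cluster gene, are 99.7% identical as transcripts, so the split of reads between them is uncertain. Cyp3a41b stood at 0 to 6.14% of Cyp3a41a in the female livers, and the sum of both genes averaged 65176 ± 22235 in WT AL females, against 62941 ± 20124 for Cyp3a41a alone (SD, n = 5).

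Recovered reads per library were 21132490 to 44195300. The Y-linked gene Ddx3y was at least 1543 in every male liver and at most 15.4 in every female liver. The summed expression of Ghr was not called in any genotype comparison, with means of 12749 in d3 CR males and 17084 in WT CR males, and a gene total cannot show the loss of 1 exon. Of 10 hepatocyte markers, 8 were measured, and none was at 0 in all livers of a group. Skeletal muscle markers (15 of 16 measured, none at 0 in all livers of a group) had summed levels of 31.4 to 238587 in d3 CR males, 52.8 to 460498 in WT CR males, 28.3 to 259155 in d3 AL males, and 35.7 to 79581 in WT AL males. In females they were 83.0 to 2249111 in d3 CR livers, 52.3 to 860696 in WT CR livers, 57.3 to 167785 in d3 AL livers and 52.2 to 190006 in WT AL livers. In 17 libraries, spread over all 8 groups, their mean log2 level was 8 or more, and results that depend on these libraries are given with and without them. In bulk liver, fewer cells of a type and less RNA per cell cannot be told apart.

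Divided by transcript length, so that genes can be set side by side, Cyp3a11 was the main member in both sexes, and the female livers added Cyp3a41a. In males Cyp3a11, the principal drug-oxidising CYP3A enzyme of mouse liver, made up 72.1% ± 4.11 (d3 CR), 77.9% ± 3.70 (WT CR), 68.2% ± 4.56 (d3 AL) and 72.7% ± 6.13 (WT AL) of the summed level per kb of the 10 genes (SD, n = 5). In females its share was 58.4% ± 7.81 (d3 CR), 55.6% ± 6.17 (WT CR), 60.5% ± 8.72 (d3 AL) and 46.1% ± 10.7 (WT AL). Cyp3a25, another liver CYP3A enzyme that oxidises steroids and drugs, came next in males with 17.4% to 26.3%. In females it held 24.2% ± 2.45 (d3 CR), 26.1% ± 4.81 (WT CR) and 17.1% ± 2.56 (d3 AL), above the mean share of Cyp3a41a. Only in WT AL females was it below Cyp3a41a, at 15.9% ± 2.46. Cyp3a41a, made almost only in female mouse liver, held 9.91% ± 7.27 of the sum in d3 CR females, 10.1% ± 10.9 in WT CR females, 14.5% ± 9.46 in d3 AL females and 26.6% ± 6.26 in WT AL females. Per kb in WT AL females, Cyp3a11 averaged 52365, Cyp3a41a 30554, Cyp3a25 17928, Cyp3a44 3167 and Cyp3a16 2797. Cyp3a13, also made in mouse intestine, held 3.06% to 5.61% of the sum in every group. The 4 genes Cyp3a16, Cyp3a41a, Cyp3a41b and Cyp3a44 together held at most 0.0122% on average in any male group, against 32.5% ± 10.7 in WT AL females. The summed family level per kb was 64827 ± 19666 in d3 CR females and 54157 ± 11440 in WT CR females, and 97171 ± 25336 in d3 AL females and 114151 ± 18199 in WT AL females.

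**Figure D1:**
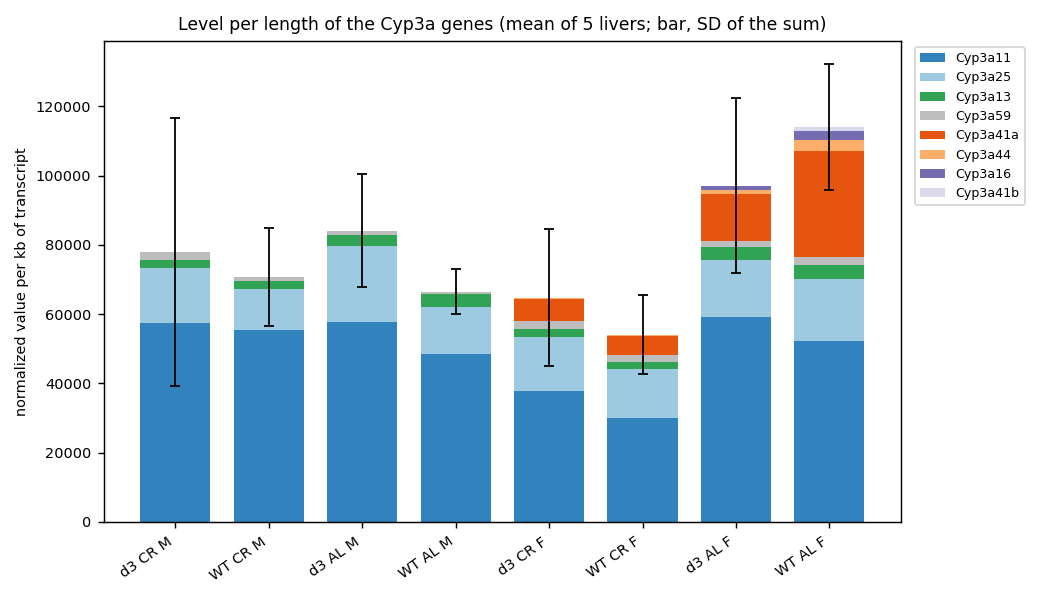
Summed level per kb of transcript of the Cyp3a genes in each of the 8 groups (stacked bars, mean of 5 livers, with the SD of the sum as the error bar; y axis, normalized value per kb). Cyp3a11 is the largest segment in every group, and the Cyp3a41a segment is visible in the 4 female groups, largest in WT AL females at 30554 per kb.

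Per gene, the 8 groups fell into 2 kinds of order. For Cyp3a41a and Cyp3a44 the mean was highest in WT AL females, then d3 AL females, d3 CR females and WT CR females, with all male groups below. Cyp3a16 had the same order with WT CR females above d3 CR females. Adjacent groups in these orders overlapped in range, except that every WT CR female liver was above every d3 CR male liver for Cyp3a41a and Cyp3a44. Cyp3a13 was highest in WT AL females (11968 ± 1252) and WT AL males (11003 ± 4222), and the 4 AL groups stood above the 4 CR groups. For Cyp3a25 the order ran from d3 AL males (43606 ± 7276) down to WT CR males (24201 ± 3560), and for Cyp3a11 from d3 AL females (138437 ± 43506) down to WT CR females (70515 ± 16958). Neighbouring groups overlapped in range throughout for these 3 genes. Within a group the highest liver exceeded the lowest 1.32-fold to 2.87-fold for Cyp3a11, 1.28-fold to 3.87-fold for Cyp3a13 and 1.41-fold to 2.42-fold for Cyp3a25. For Cyp3a41a that ratio was 2.13 in WT AL females, 33.2 in WT CR females, 50.2 in d3 CR females and 158 in d3 AL females. The d3 AL ratio rests on 1 liver at 351.

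**Figure D2:**
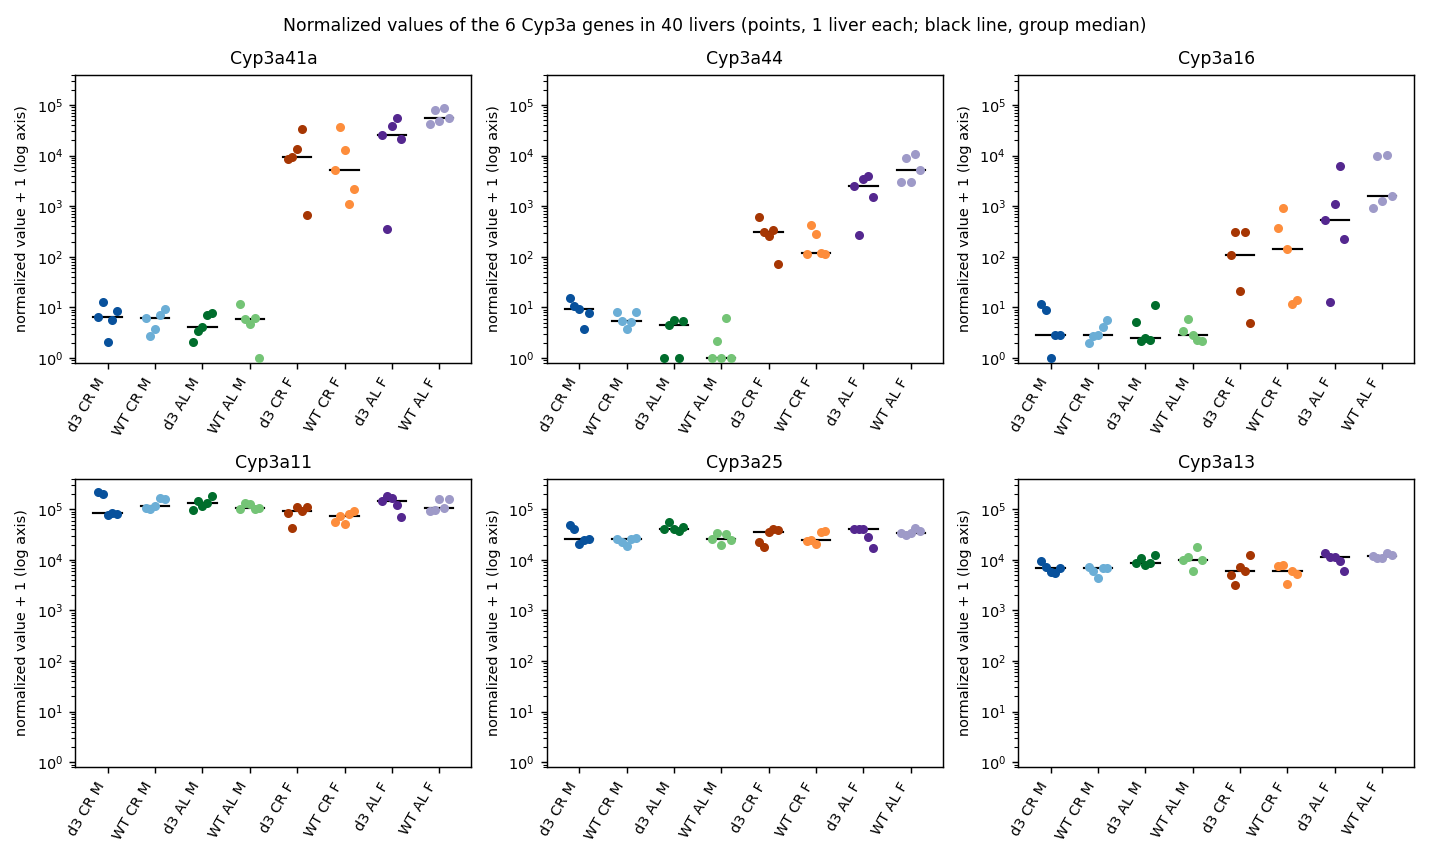
Normalized value of each member in each liver (points; log axis, value + 1), with the 8 groups from d3 CR males at the left to WT AL females at the right and the group median as a black line. Cyp3a41a, Cyp3a44 and Cyp3a16 lie at or below 14.1 in all 20 male livers, whereas Cyp3a11, Cyp3a13 and Cyp3a25 lie at 3233 or above in every liver.

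Males and females were compared within each genotype and diet. Cyp3a41a, Cyp3a44 and Cyp3a16 were lower in males in all 4 comparisons, and no difference passed the test for Cyp3a11, Cyp3a13 or Cyp3a25. By limma, 3 of 6 members were called in WT AL livers, where 6.48% of all genes tested were called, 3 of 6 in WT CR livers (4.57% of all genes), 3 of 6 in d3 AL livers (6.16%) and 3 of 6 in d3 CR livers (8.81%). The members' median log2 change (M minus F) was -5.14, -2.53, -3.42 and -2.01 in that order, against -0.01, -0.01, -0.01 and -0.02 over all genes tested. Each of these medians falls between the 3 genes lower in males and the 3 not called, and describes neither set. The 3 called genes passed the filter only through their female values, so their count beside the shares over all genes is a description, not support. Cyp3a11, Cyp3a13 and Cyp3a25 were each measured from at least 150167 reads in each sex, whereas the male values of the other 3 genes rest on a few reads.

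Cyp3a41a had 0 to 11.8 in the 20 male livers, resting on 89 reads in all with at most 12 in any liver. In females it had 8436, 9323, 13742, 33654 and 670 in d3 CR livers, 5169, 36276, 13179, 1092 and 2135 in WT CR livers, 26069, 351, 37619, 55363 and 21088 in d3 AL livers, and 41430, 79576, 48879, 88274 and 56544 in WT AL livers. Every female liver was above every male liver, and the female groups themselves spread widely. The log2 change was -13.69 ± 0.99 in WT AL livers (SE, adjusted p = 5.9e-13), -10.06 in WT CR livers (adjusted p = 4.1e-09), -11.58 in d3 AL livers (adjusted p = 5.64e-11) and -10.29 in d3 CR livers (adjusted p = 3.13e-09). Because male values were near 0, these fitted changes depend on the pseudocount of 1 and are no measured fold.

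Cyp3a44, a female-predominant enzyme of mouse liver, had 0 to 14.1 in male livers, from 81 reads in all, with 5 livers at 0. In females it had 605, 310.1, 256, 338 and 71.5 in d3 CR livers, 114, 414, 282, 117 and 112 in WT CR livers, 2468, 270.0, 3455, 3941 and 1494 in d3 AL livers, and 3070, 9143, 2988, 10677 and 5190 in WT AL livers. No male liver reached the lowest female value. The log2 change was -11.65 ± 0.65 in WT AL livers (adjusted p = 4.74e-16), -4.93 in WT CR livers (2.19e-06), -9.30 in d3 AL livers (2.52e-13) and -4.94 in d3 CR livers (4.67e-06). As for Cyp3a41a, these fitted changes depend on the pseudocount, and the WT AL change was -12.09 to -8.93 over 8 other settings. The fitted difference between the sexes was smaller under CR, and the test of that change is given with diet.

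Cyp3a16, known in mice as a form of fetal and young liver, had 0 to 10.8 in male livers, from 59 reads in all. Its female values were 109.7, 310.1, 19.96, 304 and 3.88 in d3 CR livers, 374, 912, 143, 10.9 and 12.8 in WT CR livers, 525, 11.98, 1112, 6205 and 221.5 in d3 AL livers, and 921, 9991, 1287, 10426 and 1569 in WT AL livers. Males and females did not overlap in 3 comparisons, but in d3 CR livers only 3 of 5 males were below the lowest female. The log2 change was -9.86 ± 1.21 in WT AL livers (adjusted p = 2.76e-07), -4.88 in WT CR livers (0.0148), -6.76 in d3 AL livers (0.000246) and -4.05 in d3 CR livers (0.0317). These fitted changes also depend on the pseudocount, and the WT AL change was -10.94 to -7.88 over 8 other settings. The d3 CR call was lost in 6 of 10 fits that each left out 1 liver, over which the change was -4.98 to -3.48. Without the 17 muscle-rich libraries, the WT CR and d3 CR changes of Cyp3a16 were -5.73 and -3.78, and neither passed the test.

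Among the other Cyp3a genes, Cyp3a41b and the pseudogene Cyp3a63-ps were also lower in males in all 4 comparisons. They had 3 and 4 reads in all over the 20 male livers, and they too passed the filter only through the female livers. Cyp3a59, another cluster gene, was called lower in males in WT AL livers, with 1120, 1681, 1013, 2760 and 1654 in males and 2625, 4115, 4235, 6213 and 3701 in females (log2 change -1.38 ± 0.36, adjusted p = 0.0148). Its sex difference did not pass the test in the other 3 comparisons, and whether the differences themselves differ was not tested.

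Cyp3a11 was not called between the sexes. In WT CR livers its values were 107914, 100101, 116034, 163555 and 160609 in males and 56218, 72386, 51267, 80419 and 92283 in females. Every male liver was above every female liver there, yet the log2 change of 0.88 ± 0.29 had an adjusted p of 0.0785. With library weights it passed the test (adjusted p = 0.019), which made 4 of 6 members called in WT CR livers. In the other 3 comparisons its change was -0.08 (WT AL), 0.01 (d3 AL) and 0.51 (d3 CR). The change was between -0.42 and 0.44 for Cyp3a25, and between -0.20 and 0.15 for Cyp3a13, with adjusted p of at least 0.312 for both.

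**Figure D3:**
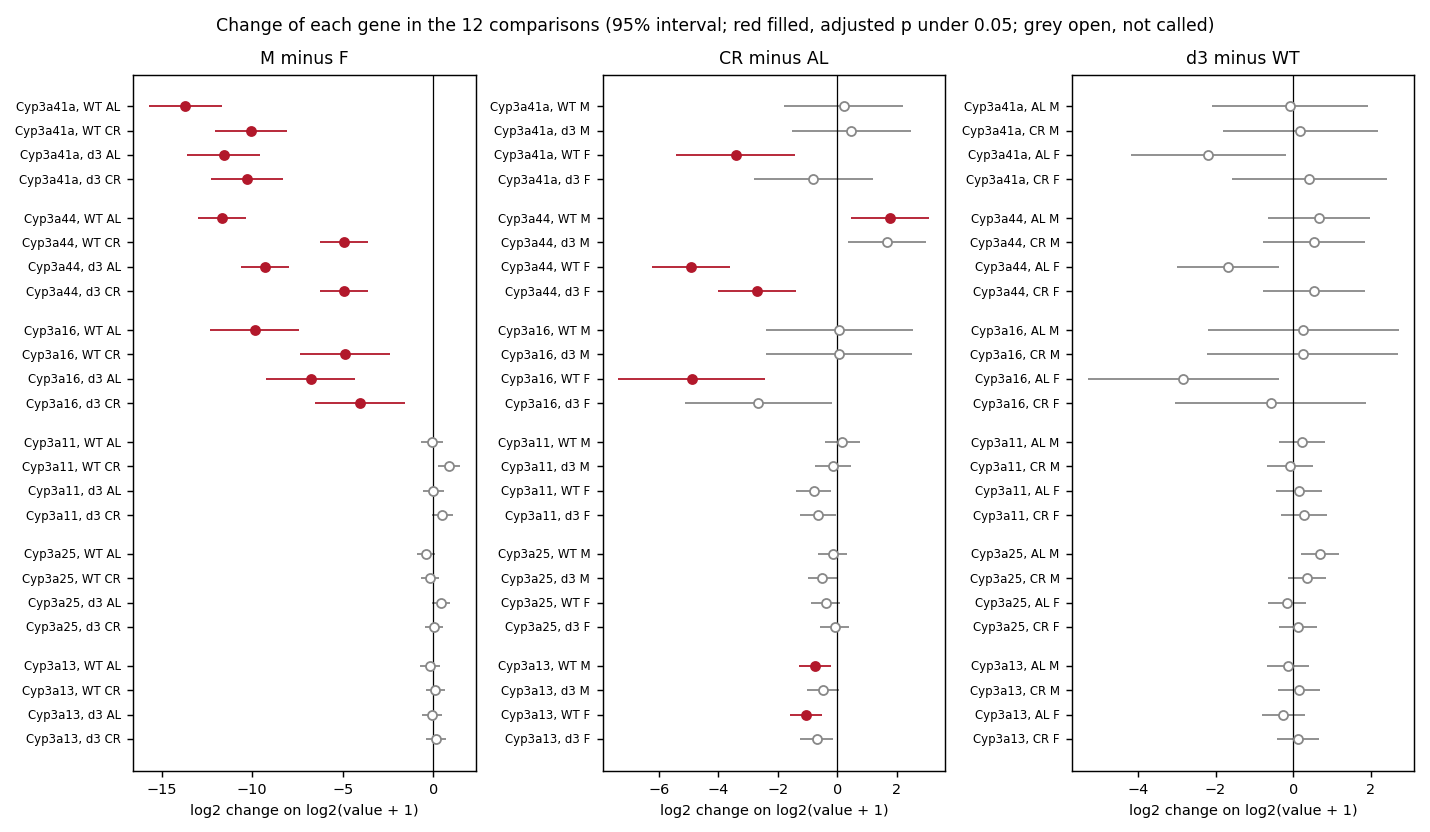
Log2 change of each member with its 95% interval, M minus F, CR minus AL and d3 minus WT (panels; x axis, log2 change; filled red points have an adjusted p below 0.05). Cyp3a41a, Cyp3a44 and Cyp3a16 are far below 0 in the M minus F panel, down to -13.69, and no point is filled in the d3 minus WT panel.

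Calorie restriction was set against ad libitum feeding within each sex and genotype. In WT females, Cyp3a44, Cyp3a16, Cyp3a41a and Cyp3a13 fell under CR. In d3 females, Cyp3a44 fell. In WT males, Cyp3a13 fell, and the few reads of Cyp3a44 rose. By limma, 4 of 6 members were called in WT females, with 11.7% of all genes called, 1 of 6 in d3 females (17.9%) and 2 of 6 in WT males (21.5%). In d3 males 0 of 6 members were called by limma or by edgeR, 2 of them had an unadjusted p under 0.05, and 19.5% of all genes were called. The members' median log2 change (CR minus AL) was -2.24 in WT females, -0.75 in d3 females, 0.12 in WT males and -0.04 in d3 males, against 0.02 to 0.04 over all genes tested.

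In WT females, the CR and AL livers did not overlap for Cyp3a44, Cyp3a16, Cyp3a41a, Cyp3a13 and Cyp3a11. The share of all genes tested with ranges apart is not given here, so nothing about the family is read from that list. Cyp3a44 averaged 208 ± 136 in WT CR females and 6214 ± 3530 in WT AL females (SD, n = 5 each), a log2 change of -4.93 ± 0.65 (adjusted p = 1.96e-06). Cyp3a16 averaged 290.5 ± 378 in WT CR females and 4839 ± 4909 in WT AL females, a change of -4.90 ± 1.21 (0.00683). The highest WT CR liver for Cyp3a16, at 912, was just under the lowest WT AL liver, at 921. Cyp3a41a averaged 11570 ± 14601 in WT CR females and 62941 ± 20124 in WT AL females, a change of -3.42 ± 0.99 (0.0202). That call was lost without WT CR female 4 (-2.83, adjusted p = 0.076) and without WT CR female 5 (-3.07, adjusted p = 0.055). With Cyp3a16, Cyp3a41a, Cyp3a41b and Cyp3a44 summed as 1 gene, the change was -3.55 ± 0.92 (0.00967).

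Cyp3a13 had 7412, 7799, 3289, 6151 and 5168 in WT CR females, against 12101, 10801, 10726, 13722 and 12489 in WT AL females. All WT CR livers were below all WT AL livers, and the log2 change was -1.06 ± 0.27 (adjusted p = 0.00803). Cyp3a11 had 56218 to 92283 in WT CR females and 92488 to 159478 in WT AL females. Its ranges did not overlap either, but its change of -0.79 ± 0.29 did not pass the test (adjusted p = 0.0732), and with library weights it did (adjusted p = 0.0341). Cyp3a25 had 20461 to 36629 in WT CR females and 30905 to 43645 in WT AL females, ranges that overlapped (log2 change -0.38 ± 0.24, adjusted p = 0.327). Of 8 hepatocyte markers, 2 were called lower in WT CR females and none higher, beside 11.7% of all genes called, with a list median of -0.48. The muscle list median was -0.07, and with the muscle-rich libraries left out, the changes were -4.72 for Cyp3a44, which passed the test, -3.78 for Cyp3a16, -2.93 for Cyp3a41a and -0.86 for Cyp3a13, which did not.

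In d3 females, Cyp3a44 averaged 316 ± 192 under CR and 2326 ± 1485 under AL, a log2 change of -2.70 ± 0.65 (adjusted p = 0.00325), with ranges that overlapped through d3 AL female 2 at 270.0. Cyp3a16 averaged 149.6 ± 149.4 under CR and 1615 ± 2599 under AL (-2.65, adjusted p = 0.132). Cyp3a41a averaged 13165 ± 12383 under CR and 28098 ± 20354 under AL (-0.81, adjusted p = 0.633). Leaving out single livers moved these changes. Without d3 AL female 2 the change of Cyp3a16 was -3.89 and passed the test (0.0162), and without d3 CR female 5, where Cyp3a41a was 670, the change of Cyp3a41a was 0.06. Cyp3a13 averaged 6829 ± 3490 under CR and 10396 ± 2920 under AL (-0.69, adjusted p = 0.0684), and d3 CR female 5 had 12513, above 4 of the 5 AL livers. Cyp3a11 averaged 88853 ± 28879 under CR and 138437 ± 43506 under AL (-0.65, 0.126). The hepatocyte list median was -0.49 in d3 females, with 2 of 8 markers called lower, beside 17.9% of all genes called. The median log2 change of the muscle list under CR was 3.25 in d3 females, with 0 of its 15 genes called by limma, 1 by edgeR and 1 at an unadjusted p under 0.05. A fit with a muscle covariate left the number of called members unchanged, and the cause of these changes was not tested. Without the muscle-rich libraries the Cyp3a44 change was -2.22 and did not pass the test. In the titles of the d3 samples all AL numbers precede all CR numbers within each sex, so diet and that order cannot be told apart there.

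In males the calls were near the threshold. Cyp3a13 had 7345, 5897, 4425, 6979 and 6762 in WT CR males, against 9988, 11196, 6043, 17696 and 10092 in WT AL males. The third WT AL male lay inside the CR range, and the log2 change was -0.75 ± 0.27 (adjusted p = 0.0419). In d3 males Cyp3a13 averaged 6971 ± 1524 under CR and 9646 ± 1837 under AL (-0.47, 0.221). Cyp3a44 had 7, 5, 3, 4 and 6 reads in WT CR males and 0, 1, 0, 4 and 0 in WT AL males (1.79, 0.0443). In d3 males it had 13, 10, 8, 3 and 7 reads under CR and 0, 3, 3, 0 and 4 under AL (1.66, 0.0665). The mean value of Cyp3a44 was at most 8.30 in any male group, so it was tested in males only through its female values. Both WT male calls were lost in 8 of 10 fits that left out 1 liver, and both were lost without the muscle-rich libraries (-0.65 for Cyp3a13, 1.87 for Cyp3a44). The hepatocyte list median was -0.48 in WT males and -0.63 in d3 males, with 3 of 8 markers called lower in each. Of all genes tested, 21.5% were called in WT males and 19.5% in d3 males. The median log2 change of the muscle list under CR was 2.39 in WT males and 2.53 in d3 males, with 0 of 15 genes called by limma in either, 0 by edgeR and 0 at an unadjusted p under 0.05. A fit with a muscle covariate left the number of called members unchanged in both genotypes, and the cause of these changes was not tested. The log2 change of Cyp3a11 was -0.15 in d3 males and 0.17 in WT males, and that of Cyp3a25 -0.50 in d3 males and -0.15 in WT males, with adjusted p of at least 0.141.

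A difference of the diet change between the sexes was tested directly. Cyp3a44 was the 1 of 6 members called in WT livers, with a diet change 6.71 ± 0.92 higher on the log2 scale in males than in females (adjusted p = 3.95e-05), where 0.348% of all genes were called. It was also the 1 of 6 called in d3 livers, at 4.36 ± 0.92 (adjusted p = 0.00717), where 2.09% were called. The male term rests on the few reads given above. On the log2(value + 1) scale, Cyp3a44 averaged only 0.76 (WT) and 1.42 (d3) among males fed AL. A fall under CR as large as that of females was therefore not possible in males. For that reason the test cannot tell whether diet acts differently in the sexes. Leaving out the muscle-rich libraries gave 4.10 in d3 livers, which did not pass. In WT livers the same difference was 4.98 ± 1.72 for Cyp3a16 (0.231), 3.63 ± 1.40 for Cyp3a41a (0.299) and 0.96 ± 0.41 for Cyp3a11 (0.365). Cyp3a16 and Cyp3a41a were also too low in males to fall as far as in females, so the same limit applies to them.

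The d3 and WT genotypes were compared within each sex and diet, since the series asks how the deletion acts in each sex. No member was called by limma or by edgeR in any of the 4 comparisons. The count was 0 of 6 in AL males (1 with an unadjusted p under 0.05, 0.0436% of all genes called), 0 of 6 in CR males (0 unadjusted, 0.138%), 0 of 6 in AL females (3 unadjusted, 0% called by either tool and 875 genes with an unadjusted p under 0.05) and 0 of 6 in CR females (0 unadjusted, 0% called by either tool, 1027 unadjusted). The median log2 change (d3 minus WT) of the members was 0.25 in AL males, 0.22 in CR males, -0.97 in AL females and 0.21 in CR females, against -0.0051 to 0 over all genes tested.

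In AL females the 3 female-biased members had lower means in d3 livers, and none of the differences passed the test. Cyp3a16 averaged 1615 ± 2599 in d3 AL females and 4839 ± 4909 in WT AL females, with a log2 change of -2.84 and a 95% interval of -5.30 to -0.37. The changes were -1.68 for Cyp3a44 and -2.19 for Cyp3a41a, and the adjusted p was 0.775 for all 3. Over the leave-outs the Cyp3a41a change was -2.71 to -0.88, the smallest without d3 AL female 2, whose value was 351. In CR females the changes were 0.55 for Cyp3a44, 0.42 for Cyp3a41a and -0.58 for Cyp3a16. In the authors' deposited table, the d3 against WT change in AL females was -1.42 for Cyp3a44 (adjusted p = 0.598), -1.20 for Cyp3a41a (adjusted p = 0.785) and -2.0003 for Cyp3a16, whose adjusted p is given as NA.

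Cyp3a25 had 40106, 55822, 40900, 37073 and 44127 in d3 AL males, against 25425, 33249, 19606, 33106 and 24492 in WT AL males. Every d3 liver was above every WT liver, and the log2 change was 0.70 ± 0.24 with an adjusted p of 0.406. In CR males, where all WT title numbers precede all d3 numbers and genotype and that order cannot be told apart, it averaged 32163 ± 12097 in d3 livers and 24201 ± 3560 in WT livers (0.34, 0.759). The authors' deposited table gives 0.64 for Cyp3a25 in AL males, with an adjusted p of 0.264.

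The genotype interactions called no member. In the fit for whether the genotype change differed between CR and AL, limma called 0 of 6 members in males (0 unadjusted, 0.0218% of all genes called) and 0 of 6 in females (1 unadjusted, 0% called, 1527 genes with an unadjusted p under 0.05). For whether it differed between males and females, 0 of 6 were called on AL (2 unadjusted, 0% of all genes called, 1056 unadjusted) and 0 of 6 on CR (0 unadjusted, 0.0145% called). EdgeR also called 0 of 6 members in each. In females the CR minus AL difference of the genotype change was 2.61 for Cyp3a41a (adjusted p = 0.496), 2.25 for Cyp3a16 (0.675) and 2.23 for Cyp3a44 (0.341). On AL the male minus female difference was 3.10 for Cyp3a16 (0.716), 2.34 for Cyp3a44 (0.51) and 2.11 for Cyp3a41a (0.798).

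The log2 ratio of each other member to Cyp3a11, both as value + 1, was compared within livers. For Cyp3a41a, Cyp3a44 and Cyp3a16 in males, where values were near 0, the ratio depends on the pseudocount and on the scaling of Cyp3a11. Over 60 exact 2-sided permutation tests of 5 livers against 5, where the smallest possible p is 0.00794, 13 had an adjusted p under 0.05, namely 12 for sex, 1 for diet and 0 for genotype. The sex results were Cyp3a41a and Cyp3a44 in all 4 comparisons, Cyp3a16 in 3 of 4, all lower in males, and Cyp3a25 in WT CR livers. There the log2 ratio of Cyp3a25 to Cyp3a11 was -2.40 ± 0.28 in males and -1.33 ± 0.14 in females (exact permutation p = 0.00794, adjusted p = 0.0366). In d3 AL livers that ratio was 0.44 higher in males (exact permutation test, adjusted p = 0.060), so its direction was not the same throughout. The diet result was Cyp3a44 in WT females, with a log2 ratio to Cyp3a11 of -8.59 ± 1.06 under CR and -4.46 ± 1.06 under AL (exact permutation p = 0.00794, adjusted p = 0.0366). The lowest exact permutation p for genotype was 0.0397, for Cyp3a41a in AL females (adjusted p = 0.113).

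Among the 20 female livers, the 3 female-biased members varied together but not in constant proportion. Deviations from the group means had r = 0.88 between Cyp3a41a and Cyp3a44, and -0.34 between Cyp3a11 and Cyp3a41a, over livers that share a group mean and a library each. Cyp3a44 stood at a median of 3.33% of Cyp3a41a in d3 CR females, 2.21% in WT CR females, 9.18% in d3 AL females and 9.18% in WT AL females. Cyp3a16 stood at 11.2% of Cyp3a41a in d3 AL female 4, and at 12.6% and 11.8% in WT AL females 2 and 4, against 1.05% to 3.41% in the other 7 AL female livers. These 3 livers also had the highest Cyp3a41b of the AL females, at 1993, 4884 and 4420, the next being 783. In d3 AL female 2, Cyp3a41a was 351, Cyp3a16 11.98 and Cyp3a41b 0, and Cyp3a44 at 270.0 was 76.8% of Cyp3a41a. The same liver had the highest Cyp3a11 of its group (183570) and a Cyp3a25 of 41474.

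**Figure D4:**
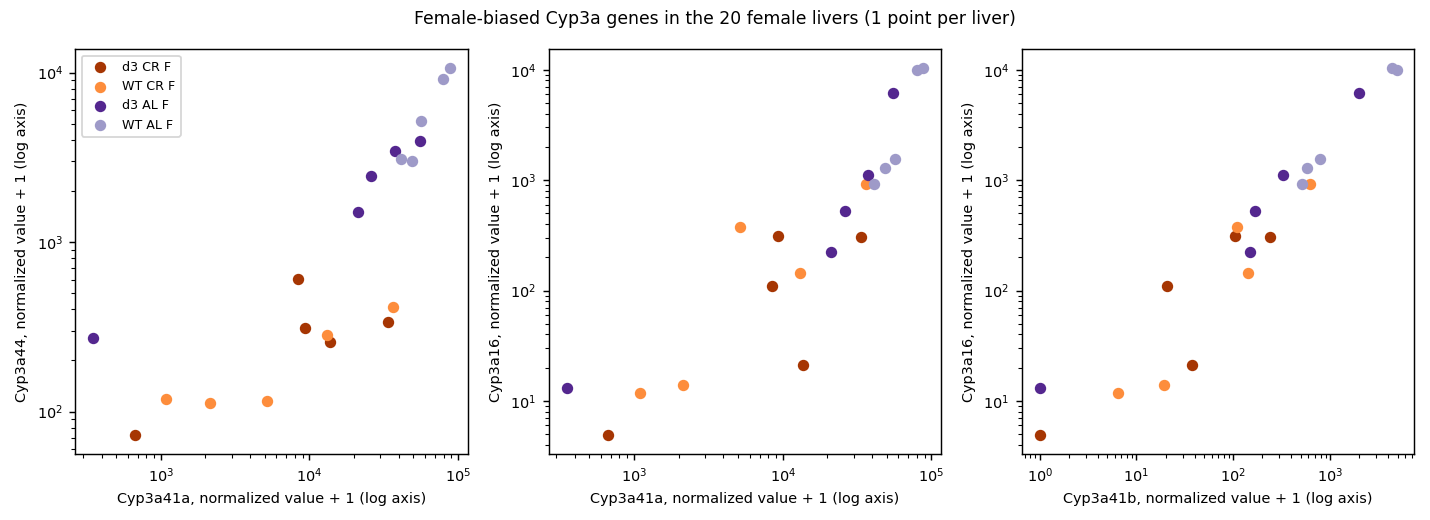
Cyp3a44 against Cyp3a41a, Cyp3a16 against Cyp3a41a, and Cyp3a16 against Cyp3a41b in the 20 female livers (points coloured by group; both axes normalized value + 1 on a log scale). The d3 AL liver with Cyp3a41a at 351 lies apart at the left, and 3 AL livers with Cyp3a16 at 6205, 9991 and 10426 lie at the top.

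Along the cluster, the members low in males are neighbours of each other, from Cyp3a16 through Cyp3a41a to Cyp3a44. The next Cyp3a gene after Cyp3a44 is Cyp3a11, which averaged 113406 ± 14430 in WT AL males and 122743 ± 33816 in WT AL females. Its neighbour Cyp3a44 averaged 1.29 ± 2.27 in WT AL males and 6214 ± 3530 in WT AL females.

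**Figure D5:**
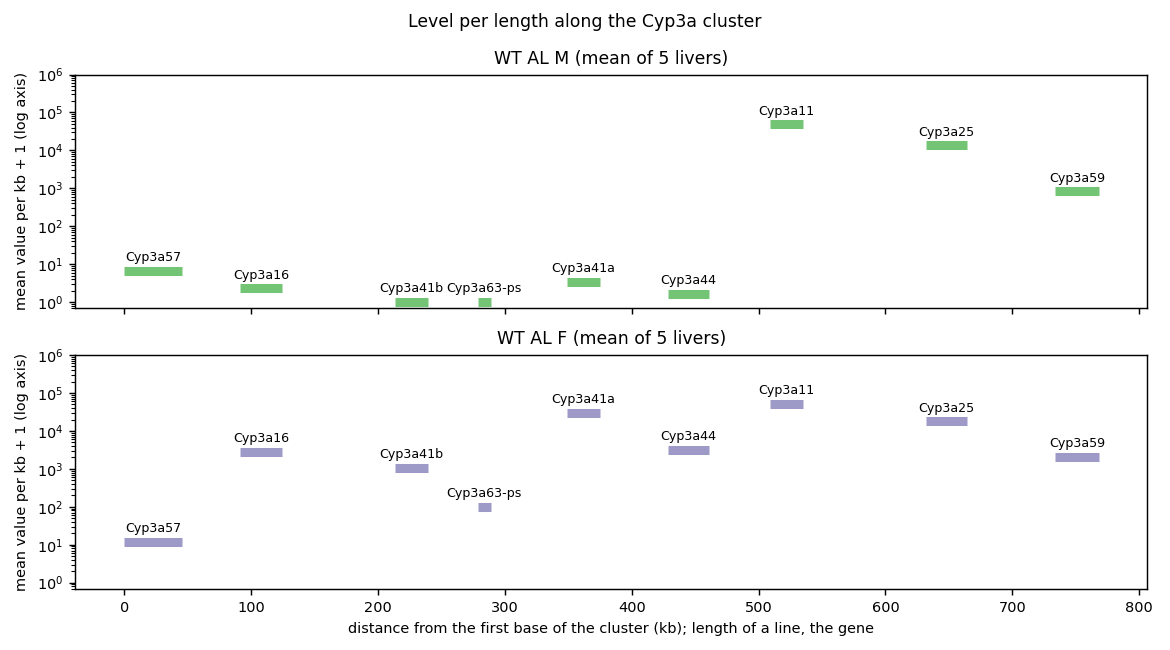
Level per kb of each Cyp3a gene (log axis) along the cluster by distance from its first base, in WT AL males (upper panel) and WT AL females (lower panel; lines span each gene, mean of 5 livers). Cyp3a16, Cyp3a41b, Cyp3a41a and Cyp3a44, side by side in the middle, are high in the female panel only, with Cyp3a41a at 30554 per kb.

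Genes whose pattern was most like each member were ranked by Pearson r of log2(value + 1) over the 40 livers, among 12973 genes, as a description of points that share groups and sexes. For Cyp3a41a they were Sult3a2 (r = 0.97), Nt5e (0.93) and Sult2a2 (0.93), with r of 0.77, 0.63 and 0.45 for the deviations from group means. For Cyp3a44 they were Sult3a2 (0.95), Nt5e (0.94) and Cdx4 (0.92), with 0.51, 0.54 and 0.20 for the deviations. Cyp3a16 had the same 3 genes as Cyp3a44, at 0.91, 0.91 and 0.86, with 0.57, 0.56 and 0.25 for the deviations. Sult3a2, a sulfotransferase, averaged 46.8 in d3 CR females, 29.7 in WT CR females, 68.6 in d3 AL females and 240.3 in WT AL females. For Cyp3a13 the closest were Arg1 (0.91), the arginase of the urea cycle, Ceacam1 (0.90) and Mat1a (0.89), and their deviations from group means had r of 0.91, 0.86 and 0.82. For Cyp3a11 they were Ces2a (0.82), a carboxylesterase, Taf5l (0.76) and Pitpnb (0.75), with 0.81, 0.66 and 0.735 for the deviations. For Cyp3a25 they were Hal (0.83), the first enzyme of histidine breakdown, Olfr1129 (0.79) and Ass1 (0.78), with 0.85, 0.81 and 0.85 for the deviations. Within the family, deviations over the 40 livers had r = 0.77 for Cyp3a11 with Cyp3a25 and 0.73 for Cyp3a13 with Cyp3a25. Over the 40 libraries the mean log2 level ran from 0.65 to 16.6 for the muscle list and from 16.2 to 18.1 for the hepatocyte list. Whether the r values of deviations follow such differences between libraries was not tested.

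Receptors and liver factors of Cyp3a control were read as a list, of which 19 of 20 were tested. Between the sexes, 1 was higher and 2 lower in males in WT AL livers, 2 higher and 1 lower in WT CR livers and 2 higher in d3 AL livers, beside 6.48%, 4.57% and 6.16% of all genes called. In d3 CR livers limma and edgeR each called 0 of 19, with 4 at an unadjusted p under 0.05. Cux2, a repressor known as female-predominant in liver, was lower in males by call in WT AL (-1.99, adjusted p = 0.00367) and WT CR livers (-2.76, 0.000102), and CAR (Nr1i3) was lower in WT AL males (-1.03, 0.000166). The list medians for sex were 0.20 in WT AL, 0.33 in WT CR, 0.10 in d3 AL and 0.02 in d3 CR livers. Ppara, the fatty acid receptor, was higher in males on AL in both genotypes (d3 0.74, adjusted p = 0.00268; WT 0.60, 0.0168). With CR, 1 rose and 2 fell in WT females, 2 rose and 3 fell in d3 females, 1 rose and 2 fell in d3 males, and 4 fell in WT males. Over all genes tested, the called share was 11.7% in WT females, 17.9% in d3 females, 21.5% in WT males and 19.5% in d3 males. The share of the list was 15.8% in WT females, 26.3% in d3 females, 15.8% in d3 males and 21.1% in WT males, and nothing particular to the list is read from it. Cux2 rose in WT females (1.51, 0.024), d3 females (1.98, 0.00182) and d3 males (2.16, 0.00058). The list medians for diet were -0.23 in WT females, -0.03 in d3 females, 0.02 in WT males and -0.22 in d3 males. PXR (Nr1i2), named here after its values were seen, with group means of 2758 to 3773, was not called in any of these comparisons.

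Other targets of PXR and CAR, all 20 of them tested, moved in both directions. Under CR, 3 rose and 2 fell in WT females, 2 rose and 2 fell in d3 females, 8 rose in WT males and 9 rose in d3 males, with list medians of -0.11, 0.11, 0.65 and 0.67. The calls were 5 of 20 in WT females, beside 11.7% of all genes tested, 4 of 20 in d3 females, beside 17.9%, 8 of 20 in WT males, beside 21.5%, and 9 of 20 in d3 males, beside 19.5%. Cyp2b10, the classical CAR target, averaged 915 ± 318 in WT CR females and 9760 ± 1679 in WT AL females (-3.49, adjusted p = 1.04e-05), and 900.3 ± 462 in d3 CR females and 5945 ± 3672 in d3 AL females (-2.68, 0.000312). Gsta1, a glutathione transferase, rose in all 4 groups, by 5.78 in WT females, 4.98 in d3 females, 4.27 in WT males and 5.12 in d3 males. Abcb1a, a drug efflux pump, rose in WT females (1.29), WT males (2.75) and d3 males (3.51). Between the sexes, 4 targets were lower in d3 AL males and 6 in WT AL males, Cyp2b10 among them (-2.91 in d3, -4.00 in WT), and 1 was higher in WT CR males, beside 6.16%, 6.48% and 4.57% of all genes called. The list medians for sex were -0.78 in WT AL, 0.02 in WT CR, -0.27 in d3 AL and 0.41 in d3 CR livers. In d3 CR livers limma and edgeR each called 0 of 20, with 7 at an unadjusted p under 0.05.

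Of the genes that serve P450 enzymes with haem and electrons, 9 of 10 were tested. Under CR, d3 males had 3 that rose and 1 that fell, and WT males had 4 that rose, beside 19.5% and 21.5% of all genes called. Alas1, the first enzyme of haem synthesis, rose in WT males (1.95, adjusted p = 0.00259) and d3 males (1.33, 0.0435). The list medians under CR were 0.49 in WT males and 0.44 in d3 males, -0.13 in WT females and 0.21 in d3 females. In females limma and edgeR each called 0 of 9 in WT and 0 of 9 in d3, with 1 in each at an unadjusted p under 0.05. For Por, which passes electrons to microsomal P450 enzymes, the log2 change was 0.72 in WT males (0.0636) and 0.69 in d3 males (0.0804). In the 4 genotype comparisons the lowest adjusted p over these 3 lists was 0.0605, in CR males.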

How the data were processed

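RNA-seq libraries of 40 mouse livers were analysed from the table the authors deposited, which holds 1 column of normalized signal per liver and the authors' own log2 fold changes and p-values for d3 against WT. Per the submitters' processing notes, FastQC, MultiQC, Trimmomatic, kallisto and DESeq2 were used with the genome build GRCm38, with versions not given in the sources used here. Each deposited value is a read count divided by 1 factor per library, since dividing by the step between low values gave whole reads, within 0.01, for 100% of values, and 21132490 to 44195300 reads per library (median 36347580). The deposited log2 changes and adjusted p-values of the authors were copied as given and enter no test here. Of 17839 rows, 115 repeated ones were dropped. No row had fewer than 37 reads in all, and 0 sample columns were left unused.

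Log2(deposited signal + 1) was fitted with limma 3.58.1 (trend, R 4.3.3) in 1 model of 8 groups for genes with a mean of at least 10. P-values were Benjamini-Hochberg adjusted over all 13776 genes with a threshold of 0.05, and "called" means past it. The model was also run on simulated counts, whose spread was not set to that of the Cyp3a genes, and no result here rests on that run. EdgeR 4.0.16 on the recovered reads was an alternative, with a pseudocount of 10, no filter, median-of-ratios scaling, library weights, the groups compared alone, a muscle covariate, and libraries left out. Ratios within a liver were tested by exact permutation of 252 splits (NumPy 2.4.6), and SciPy 1.17.1 served for the 95% intervals. Level per kb is the normalized value over the length of the longest coding transcript of GENCODE M21. Sequences were aligned with Biopython 1.88 (match 1, mismatch -1, gap opening -3, extension -1). Promoter windows were from RefSeq, with 5 of the 6 members printed. The members and gene lists were chosen with earlier results of these data known. Named genes were the members, other Cyp3a genes, the 3 genes of highest r with each member (without Cyp3a and predicted genes), and list members with the largest changes. Standard errors and 95% intervals are from the limma fit and cover the spread between livers.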

Additional observations from a re-analysis of the deposited data

Results flagged for a closer look

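Cyp3a41a in d3 AL female 2 was 351 against 21088 to 55363 in the other 4 livers of its group, a gap of 0.809 of the group's range on the log2(value + 1) scale, past Dixon's limit of 0.71 for 5 livers. It was the 1 liver so marked in 39 groups of values examined, where chance marks about 1 in 20 groups. The diet change of Cyp3a44 differed between males and females by 6.71 on the log2 scale in WT livers and by 4.36 in d3 livers. Each value is from the test of the difference itself, with the male term resting on few reads. Cyp3a44 was too low in males to fall as far as in females, so these values cannot show that diet acts differently in the sexes.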

How the results depend on the processing

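For 37 single-gene results, 734 values under other settings were computed, of which 678 kept their direction and their side of the threshold, 43 no longer passed, 11 newly passed and 2 changed sign. The 2 that changed sign were Cyp3a41a under CR in d3 females (-0.81), at 1.43 without the muscle-rich libraries and 0.063 without d3 CR female 5, with a range of -2.12 to 0.063 over the leave-outs. Of 21 called results, 9 did not pass without the 17 muscle-rich libraries, which leaves fewer livers per group. Members called under CR in WT males numbered 2, against 1 with edgeR, 0 with the groups compared alone, 0 with no filter, 1 with a pseudocount of 10, 0 without the muscle-rich libraries and 0 to 1 over the leave-outs. In d3 males the count was 0, against 1 with library weights and 0 to 1 over the leave-outs. In WT females it was 4, against 5 with library weights, 1 without the muscle-rich libraries and 3 to 4 over the leave-outs. In d3 females it was 1, against 2 with edgeR, 3 with library weights, 0 with the groups compared alone, 0 without the muscle-rich libraries and 1 to 3 over the leave-outs. The call of Cyp3a44 for diet between the sexes in d3 livers went to 0 without the muscle-rich libraries. Ratios to Cyp3a11 called for sex numbered 12, with 10 to 13 over the leave-outs; for diet 1, with 1 to 3; and for genotype 0, with 0 to 2. All 3 counts were 0 without the muscle-rich libraries, where too few livers remain for the exact test to pass. Where no construction of the setting accounts for a change, the cause was not tested. Low reads limit Cyp3a41a, Cyp3a44 and Cyp3a16 in males. No paired analysis was possible because the labels give no replicate numbers shared across groups.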

Other observations

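CYP3A enzymes are known as pericentral in mouse liver, the zone around the central vein, so markers of both zones were read as lists. Of 11 pericentral markers, limma called 0 under CR in WT females and 0 in d3 females, with 0 at an unadjusted p under 0.05 and 0 by edgeR in each, and called 2 lower in WT males and 1 lower in d3 males. Of 10 periportal markers, 1 was called lower under CR in WT females, 1 in d3 females, 2 in WT males and 1 in d3 males. Over all genes tested, 11.7% were called in WT females, 17.9% in d3 females, 21.5% in WT males and 19.5% in d3 males, so both lists lay at or below that share. The median log2 change of the pericentral list was -0.25 in WT females and that of the periportal list -0.36, against 0.02 over all genes tested.

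Cyp3a57, a low-level gene of the cluster with group means of 3.95 to 21.8, was lower under CR in WT females (log2 change -1.80, adjusted p = 0.0171), WT males (-1.79, 0.00927) and d3 males (-1.50, 0.0318). Sult2a2, whose pattern over the 40 livers was close to that of Cyp3a41a, averaged 5152 in d3 CR females and 5144 in WT CR females, against 1168 in d3 AL females and 2428 in WT AL females, the reverse order of diet to Cyp3a41a. The pseudogene Cyp3a63-ps had 136 in d3 AL female 4 and 214 and 212 in WT AL females 2 and 4, the livers with the highest Cyp3a16, and at most 59.1 in the other AL females. The mean log2 level of the muscle list in those 3 livers was 1.14, 8.27 and 1.37, and in d3 AL female 2 it was 1.71.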
